A study of Mus musculus with 2 samples.

Results

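The data describe 10 genes of the Piwi and piRNA pathway, Piwil1, Piwil2, Piwil4, Ddx4, Mov10l1, Tdrd9, Tdrd1, Tdrd5, Tdrd6 and Mael, which were chosen by name and are 10 of the 36547 genes listed in the 2 count tables. The samples were testes of C57BL/6 mice at 12 weeks of age, 1 single-cell library labelled WT and 1 labelled Alkbh5-/- (KO), homozygous for loss of the m6A RNA demethylase ALKBH5. The WT library held 5756 cell barcodes and 80283221 UMIs (unique molecular identifiers, each standing for 1 captured transcript), and the KO library held 7012 barcodes and 82056760 UMIs, with 45 barcode sequences found in both. The sources used here do not settle how many animals fed a library, and with 1 library per genotype no test between genotypes could be made.

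piRNAs are small RNAs of the germ line that guide PIWI proteins to transposon and other transcripts. Long precursors are unwound and cut at the mitochondrial surface and in perinuclear granules called nuage, where Tudor domain proteins hold PIWI proteins through methylated arginines, and in round spermatids related proteins gather in the chromatoid body. In the adult testis the most abundant piRNAs are made in pachytene spermatocytes, and the transcription factor A-MYB, the product of Mybl1, drives both their precursors and several genes of the pathway.

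Cells were grouped into 17 clusters, of which 13 were germ cell clusters, and named from marker lists. The classes were spermatogonia-like (190 WT and 1064 KO cells), early spermatocyte-like (35 and 121), late spermatocyte-like (705 and 661, in 2 clusters), mid-stage round spermatid-like (1086 and 995, in 2 clusters) and elongating spermatid-like cells (2404 and 1311, in 4 clusters). Spermatogonia-like cells had 14 of 20 spermatogonial markers and also 15 of 19 early spermatocyte markers. A pair of clusters led by Ssxb1 (837 and 799 cells), which had 20 of 20 markers of early-stage round spermatids, and 1 cluster led by Fam71b (330 and 317 cells) stayed unnamed and lie between these classes. Alkbh5 had 607 UMIs in the WT library and 5 in the KO library. Levels are CPM, UMIs of a gene per 1000000 UMIs of a class or cluster in 1 library, with exact 95% Poisson intervals in brackets, which cover counting error only.

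Among the germ cell classes of the WT library, 5 of the 10 genes were highest in late spermatocyte-like cells (Piwil1, Tdrd1, Tdrd5, Tdrd6 and Mael). Another 4 were highest in early spermatocyte-like cells (Piwil2, Ddx4, Mov10l1 and Tdrd9) and 1 in spermatogonia-like cells (Piwil4). In the KO library the highest class was the same for 8 of the 10, the exceptions being Ddx4 and Tdrd6. None was highest in the elongating spermatid-like class of either library.

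**Figure D1:**
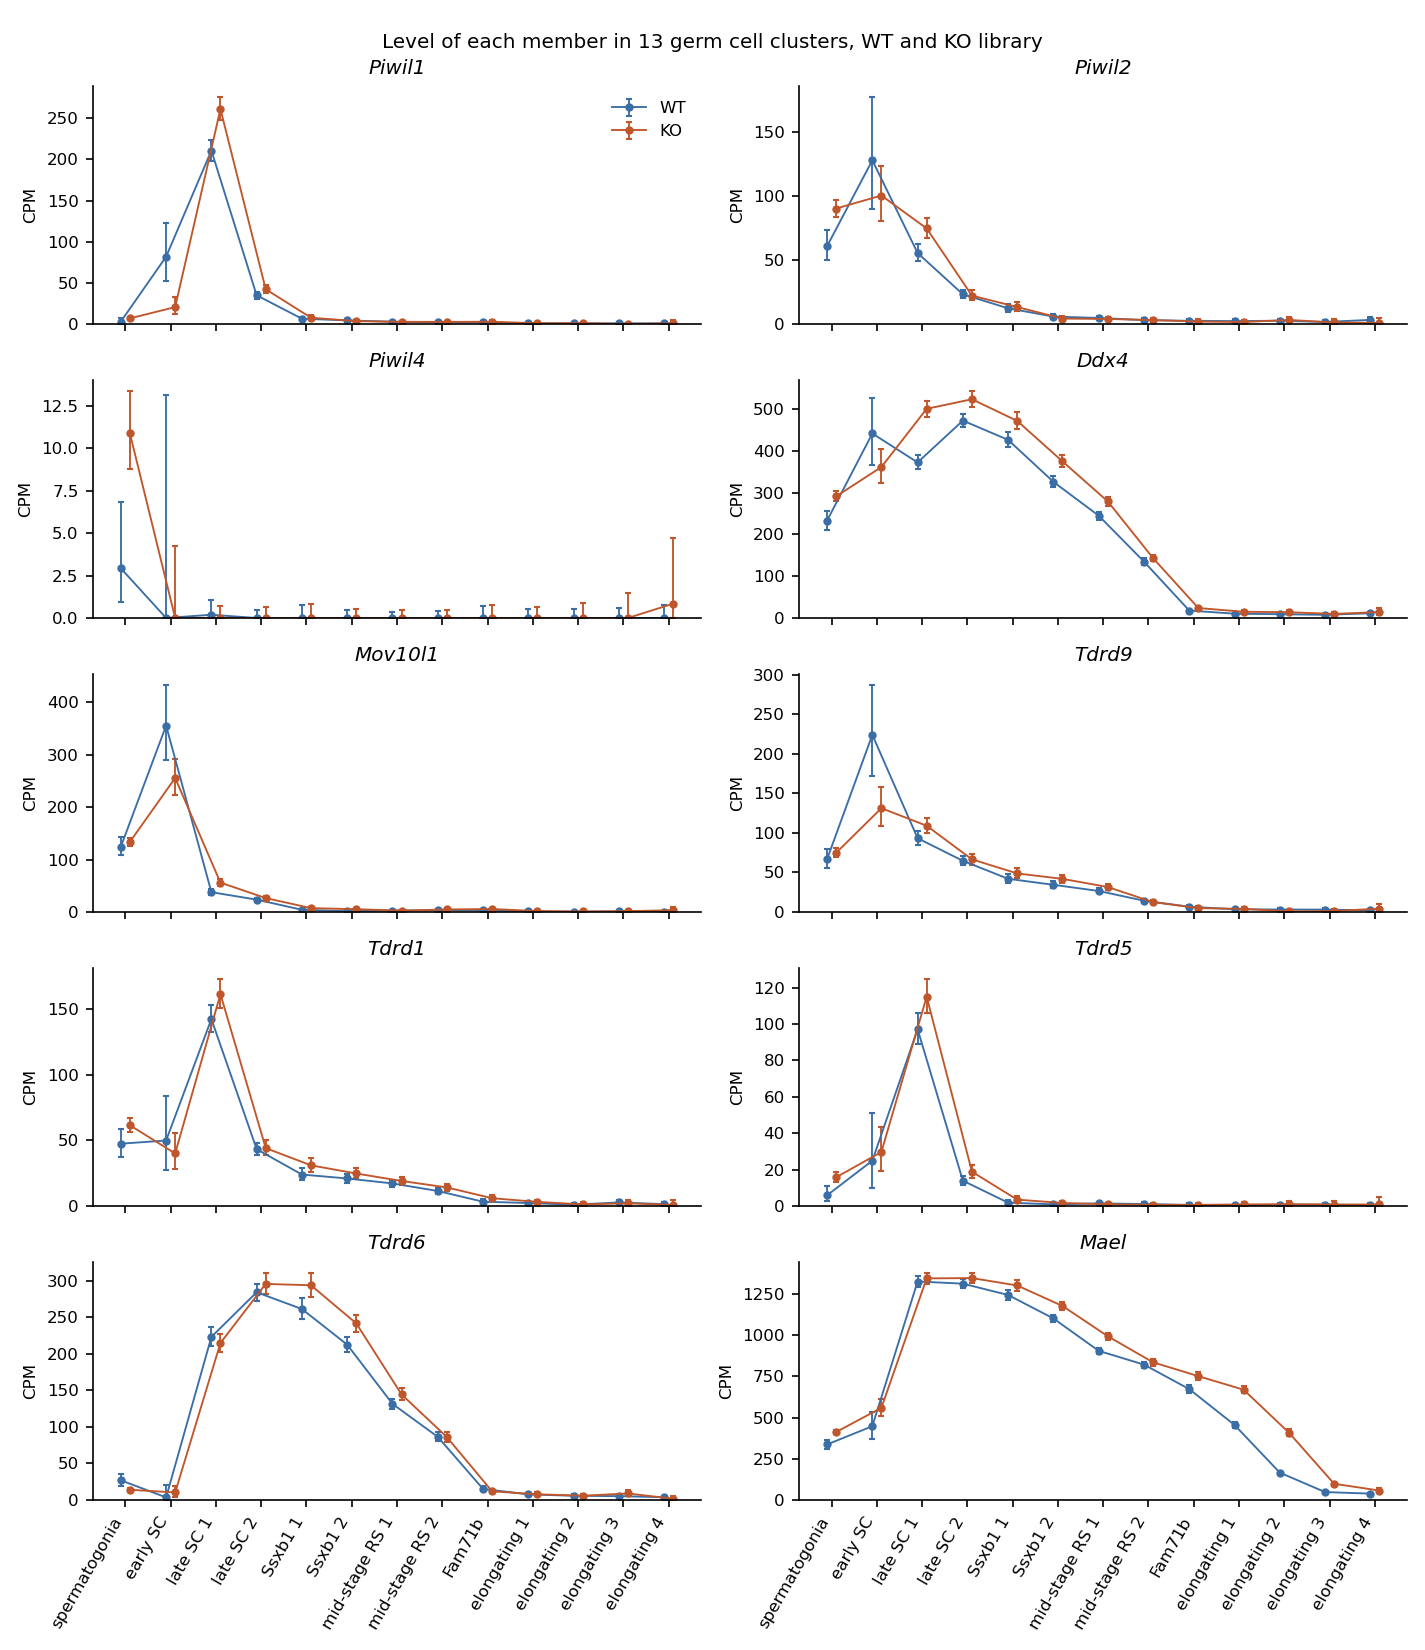
CPM of each gene (y axis, a scale of its own per gene) in 13 germ cell clusters (x axis, from spermatogonia-like to the last elongating cluster; SC, spermatocyte; RS, round spermatid) in the WT and KO libraries, with 95% Poisson bars. Piwil1, Tdrd1 and Tdrd5 stand highest in the first late spermatocyte cluster of both libraries, and Mael is above WT in the KO library in all 4 elongating clusters.

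Piwil1 encodes MIWI, the PIWI protein that carries pachytene piRNAs in late spermatocytes and round spermatids. It lies on chromosome 5 (128702524 to 128755474, plus strand, GRCm38). In the WT library it had 2.93 CPM in spermatogonia-like cells, 81.8 (51.9 to 123) in early spermatocyte-like cells, 104 (98.9 to 110) in late spermatocyte-like cells, 5.19 in the Ssxb1 clusters, 2.42 in mid-stage round spermatid-like cells, 1.91 in the Fam71b cluster and 0.787 in elongating spermatid-like cells. In the KO library the same classes held 6.81, 20.6 (12.2 to 32.5), 147 (140 to 155), 5.17, 2.61, 2.74 and 0.738 CPM. The WT early and late spermatocyte intervals overlap, and the KO ones do not.

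The Piwil1 signal was concentrated in 1 of the 2 late spermatocyte clusters, the one whose leading genes included Piwil1, Pou5f2 and Tdrd5. There the level was 211 CPM in WT and 261 in KO cells, with a Piwil1 UMI in 91.6% and 89.7% of cells, against 34.9 and 42.3 in the second cluster. The level in the first cluster was 6.04-fold that of the second in WT and 6.18-fold in KO cells. Tdrd5 showed the same contrast, 6.98-fold and 6.10-fold. Tdrd1 was 3.29-fold and 3.66-fold higher in the first cluster, while Mael stood at 1.01-fold and 1.00-fold. These folds are descriptions, since Piwil1 and Tdrd5 were among the genes used for clustering.

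The promoters of 3 of these genes and of Mael are printed because their transcripts reach their highest class level together and A-MYB is a known driver of pachytene genes. Each run holds the 250 bases before and 50 bases after a RefSeq start site (GRCm38.p6), 5′ to 3′. Capitals mark the letters AACTG or their reverse complement CAGTT, a form of the core of the MYB recognition sequence. Other forms of that core were not searched or marked.
Piwil1, chr5:128735996-128736295, plus strand: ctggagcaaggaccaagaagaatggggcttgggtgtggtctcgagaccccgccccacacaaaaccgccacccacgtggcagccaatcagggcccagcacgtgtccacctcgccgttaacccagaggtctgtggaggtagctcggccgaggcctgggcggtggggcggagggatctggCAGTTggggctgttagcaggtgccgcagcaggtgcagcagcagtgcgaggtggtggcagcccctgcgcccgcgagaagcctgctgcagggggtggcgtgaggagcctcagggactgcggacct
Tdrd5, chr1:156303299-156303598, minus strand: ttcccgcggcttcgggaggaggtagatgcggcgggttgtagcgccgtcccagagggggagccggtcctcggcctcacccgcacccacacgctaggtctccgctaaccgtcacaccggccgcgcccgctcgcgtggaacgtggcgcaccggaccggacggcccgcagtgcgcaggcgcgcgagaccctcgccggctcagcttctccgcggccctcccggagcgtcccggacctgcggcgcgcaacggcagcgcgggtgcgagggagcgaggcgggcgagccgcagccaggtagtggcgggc
Tdrd1, chr19:56826025-56826324, plus strand: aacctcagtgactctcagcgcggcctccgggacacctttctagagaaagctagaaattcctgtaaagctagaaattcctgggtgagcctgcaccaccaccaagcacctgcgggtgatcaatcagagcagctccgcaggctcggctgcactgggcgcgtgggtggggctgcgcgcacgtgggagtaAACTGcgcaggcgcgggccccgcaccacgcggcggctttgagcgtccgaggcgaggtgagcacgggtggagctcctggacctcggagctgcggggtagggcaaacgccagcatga
Mael, chr1:166238695-166238994, minus strand: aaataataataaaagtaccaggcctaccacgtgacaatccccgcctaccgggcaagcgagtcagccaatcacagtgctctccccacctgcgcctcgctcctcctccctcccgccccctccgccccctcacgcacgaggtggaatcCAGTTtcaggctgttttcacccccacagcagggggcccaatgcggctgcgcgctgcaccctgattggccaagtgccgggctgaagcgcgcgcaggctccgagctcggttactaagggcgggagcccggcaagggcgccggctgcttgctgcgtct
The marked letters began 73 bases before the start site in Piwil1, 105 before in Mael and 65 before in the Tdrd1 entry shown. Neither AACTG nor CAGTT was in the Tdrd5 window, which does not speak to other forms of the core. Searched on both strands, AACTG was in 6 of the 11 promoters of the 8 genes with an entry, covering 4 genes, and in 44.8% of all 32851 promoters of the same length. Piwil2 and Tdrd6 had no entry.

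Piwil2 encodes MILI, the PIWI protein of fetal and adult male germ cells, and lies on chromosome 14 (70372477 to 70429383, minus strand). Its WT levels from spermatogonia-like to elongating classes were 60.8 (49.7 to 73.7), 128 (89.7 to 177), 36.0 (32.8 to 39.3), 8.34, 3.94, 2.48 and 2.36 CPM. The KO levels were 90.3 (84.0 to 97.0), 100 (80.6 to 124), 47.4 (43.4 to 51.7), 7.93, 3.52, 1.90 and 1.92. Early spermatocyte-like cells stood highest in both libraries, clear of the other classes in WT and overlapping the spermatogonia-like interval in KO.

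Piwil4 encodes MIWI2, a nuclear PIWI protein known for transposon methylation in fetal male germ cells, and lies on chromosome 9 (14696230 to 14740733, minus strand). It had 5 UMIs in WT spermatogonia-like cells, 2.93 CPM (0.95 to 6.83), and 91 in KO spermatogonia-like cells, 10.9 CPM (8.75 to 13.3). A UMI was seen in 2.63% of the WT and 6.39% of the KO cells of that class. In the 6 later germ cell classes together it had 1 UMI in each library, so it was not detectable beyond spermatogonia-like cells at this depth. In early spermatocyte-like cells, with 0 UMIs, the limit that 3 counts set was 10.7 CPM in WT and 3.43 in KO.

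Ddx4 encodes VASA, an RNA helicase that marks germ cells and sits in nuage, and lies on chromosome 13 (112598333 to 112652475, minus strand). In the WT library it had 233 (211 to 257), 441 (367 to 526), 433 (421 to 444), 365 (354 to 375), 194, 17.8 and 9.48 CPM in the 7 classes in order. The KO library gave 291 (279 to 303), 361 (322 to 403), 512 (499 to 526), 414 (402 to 426), 212, 23.9 and 13.6. The WT early and late spermatocyte intervals overlap. In both libraries the level was lower in mid-stage round spermatid-like cells than in the Ssxb1 clusters, and lower again in the Fam71b cluster, with no overlap of intervals.

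Mov10l1 encodes the helicase that feeds piRNA precursors into processing, and Tdrd9 encodes a helicase with a Tudor domain that acts in transposon silencing. Mov10l1, on chromosome 15 (88982909 to 89055152, plus strand), had WT levels of 125 (108 to 143), 356 (289 to 433), 29.2 (26.4 to 32.2), 2.60, 3.03, 3.06 and 0.865 CPM and KO levels of 134 (126 to 142), 256 (223 to 292), 40.8 (37.1 to 44.7), 6.15, 3.70, 5.70 and 1.62. Tdrd9, on chromosome 12 (111971559 to 112068854, plus strand), had WT levels of 66.7, 224 (172 to 287), 76.0 (71.4 to 80.8), 37.4, 20.9, 6.69 and 2.99 and KO levels of 74.8, 131 (108 to 158), 87.0 (81.6 to 92.7), 44.7, 22.2, 4.86 and 2.51. Both peaked in early spermatocyte-like cells of both libraries, and Tdrd9 kept a larger share of its peak level in the Ssxb1 and mid-stage clusters than Mov10l1 did. Tdrd9 shares its locus with Rd3l, a protein coding gene on the opposite strand. Annotated genes on the opposite strand also overlap Piwil1, Piwil4 and Tdrd5, and genes on the same strand overlap Piwil2, Mov10l1 and Tdrd5. Whether counting used strand is not given in the sources used here.

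Tdrd1, Tdrd5 and Tdrd6 encode Tudor domain proteins of nuage and the chromatoid body. Tdrd1, on chromosome 19 (56826209 to 56870012, plus strand), had 47.4, 49.8 (27.2 to 83.6), 82.2 (77.4 to 87.3), 22.1, 14.5, 3.25 and 1.85 CPM in the WT classes and 61.4, 40 (27.8 to 55.6), 100 (94.4 to 106), 27.3, 16.6, 5.91 and 2.14 in the KO classes. Tdrd5, on chromosome 1 (156255296 to 156303664, minus strand), had 5.85, 24.9 (from 7 UMIs), 46.7 (43.1 to 50.5), 1.26, 1.26, 0.573 and 0.551 in WT and 15.8, 29.7 (19.4 to 43.5), 65.0 (60.3 to 70.0), 2.40, 0.788, 0.633 and 0.886 in KO. Both were highest in late spermatocyte-like cells, though for each gene the WT interval there overlapped the wide interval of early spermatocyte-like cells.

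Tdrd6, on chromosome 17 (43615335 to 43630299, minus strand), was low before the late spermatocyte class. Its WT levels were 26.9 (19.7 to 35.9) in spermatogonia-like cells, 3.56 in early spermatocyte-like cells from 1 UMI, 260 (251 to 269) in late spermatocyte-like cells, 232 (223 to 240) in the Ssxb1 clusters, 111 in mid-stage round spermatid-like cells, 15.1 in the Fam71b cluster and 5.78 in elongating spermatid-like cells. The KO levels were 14.0 (11.6 to 16.8), 10.3, 257 (247 to 266), 263 (254 to 273), 116, 11.8 and 6.86 CPM. In the KO library the late spermatocyte and Ssxb1 intervals overlap.

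Mael encodes Maelstrom, a nuage protein needed for piRNA production and transposon silencing in the mouse testis, and lies on chromosome 1 (166201201 to 166238747, minus strand). Its WT levels were 337 (310 to 366), 448 (373 to 534), 1319 (1299 to 1339), 1158 (1140 to 1177), 867 (854 to 880), 673 (651 to 696) and 192 (187 to 198) CPM. Its KO levels were 413 (399 to 427), 560 (511 to 611), 1347 (1325 to 1369), 1229 (1209 to 1250), 916 (902 to 931), 752 (728 to 777) and 433 (422 to 444). A Mael UMI was still seen in 56.6% of WT and 80.6% of KO elongating spermatid-like cells, where each of the other 9 members had one in at most 12.7% of cells.

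KO and WT cells were compared inside each class by a size criterion. A gene was assessed where at least 25% of WT or of KO cells held a UMI, the detection minimum in the study's methods. It passed where the natural log of the mean count, scaled to 10000 per cell and with 1 added, differed by 0.25 or more, the default size of the tool the study used, which its methods do not state. Because 1 was added, a gene of low level needed a larger ratio to pass than a gene of high level. Among the 70 pairs of a gene and a germ cell class, 1 was higher in KO and 2 were lower. Mael was higher in KO elongating spermatid-like cells, where 9.47% of all assessed genes were higher. Mov10l1 and Tdrd9 were lower in KO early spermatocyte-like cells, where 6.83% of all assessed genes were lower. The other 67 pairs missed the size or missed the detection minimum, and those under the minimum could not be called. The members that met the minimum numbered 6, 6, 9, 5, 4, 1 and 1 in the 7 classes in order. With nothing added before the log, a setting chosen after seeing the data, 8 pairs were higher and 4 lower.

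**Figure D2:**
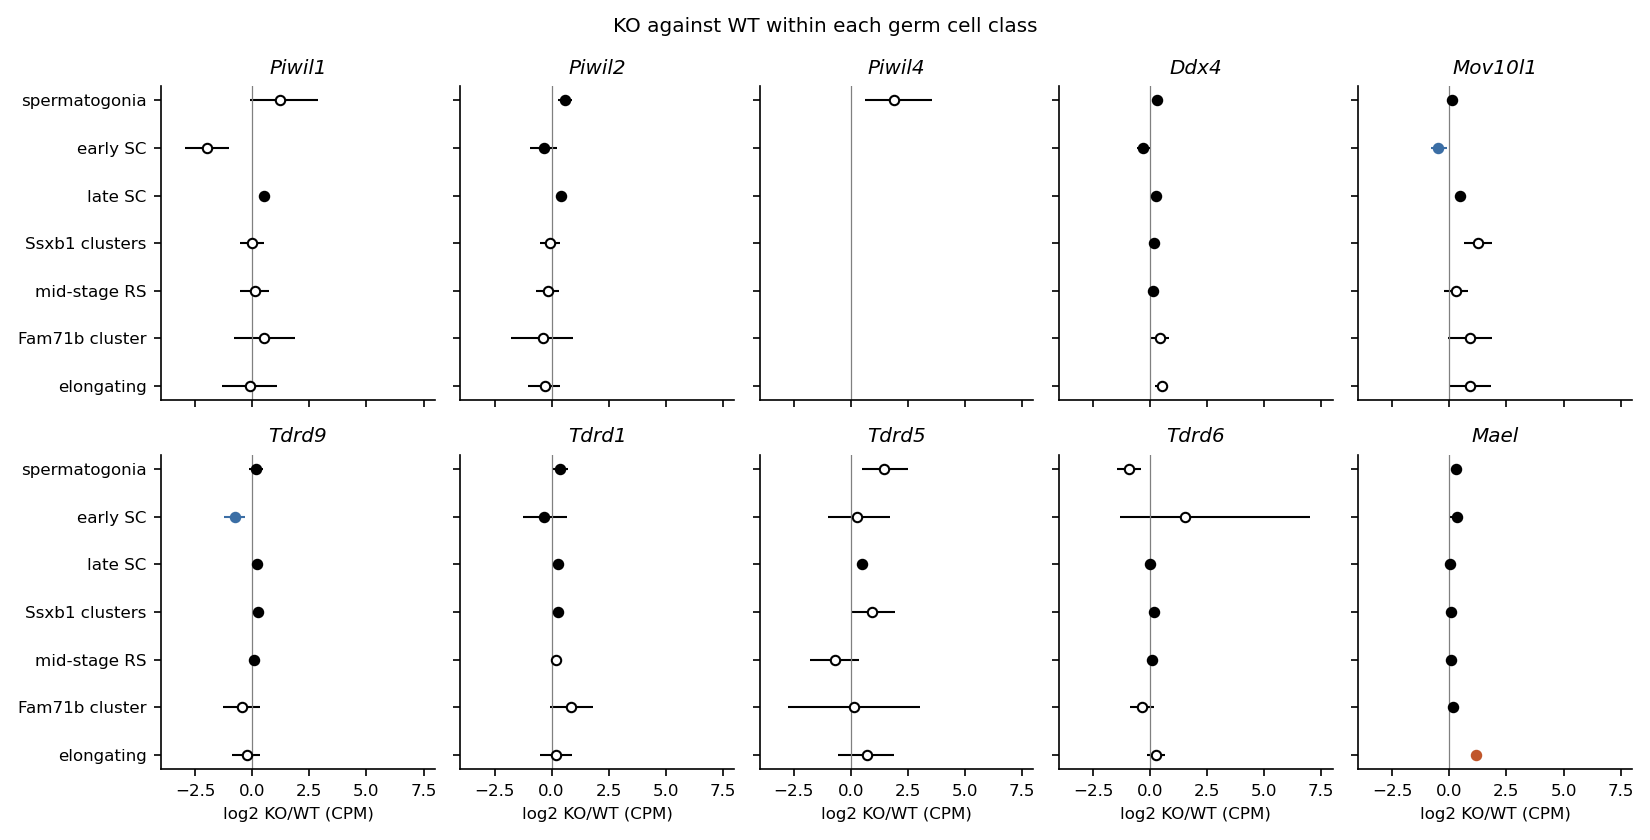
log2 ratio of CPM, KO over WT (x axis), in 7 germ cell classes (y axis) for each gene, with 95% counting intervals; filled points had a UMI in at least 25% of cells of either genotype, and classes with 0 UMIs in a library are left out. The coloured points passed the size criterion, Mael higher (1.17) in elongating spermatid-like cells and Mov10l1 (-0.48) and Tdrd9 (-0.77) lower in early spermatocyte-like cells.

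In elongating spermatid-like cells Mael had a log2 ratio of 1.17 (1.12 to 1.23), and it was the 1 member with UMIs in enough cells to be assessed. Of all genes assessed there, 9.47% were higher and 2.26% lower in KO. The KO cells of the class lay mostly in the first and second of its 4 clusters (36.8% and 31.0%, against 22.3% and 26.7% in WT), and the remaining clusters held 20.4% and 11.8% of KO and 27.7% and 23.3% of WT cells. The Mael difference was also present inside clusters. Its WT levels in the 4 clusters were 456, 166, 48.1 and 38.7 CPM and its KO levels were 670, 410, 98.5 and 57.3.

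The log2 ratios of Mael in the 4 elongating clusters were 0.56 (0.49 to 0.62), 1.30 (1.19 to 1.41), 1.03 (0.79 to 1.28) and 0.57 (0.15 to 0.97). The first 3 passed the criterion, beside 4.81%, 6.34% and 7.46% of assessed genes higher in KO. The last, where that share was 14.1%, did not, although its ratio was like that of the first cluster, since its level was lower. With nothing added before the log Mael passed in the class as a whole beside 30.3% of genes higher. At equal weight per cluster the ratio over the class was 0.80. In cells thinned to 5729 UMIs each, a Mael UMI was seen in 48.9% of WT and 77.0% of KO elongating spermatid-like cells. In the 4 classes before elongation the ratio was 0.03 (-0.00 to 0.06) in late spermatocyte-like cells, 0.09 (0.05 to 0.12) in the Ssxb1 clusters, 0.08 (0.05 to 0.11) in mid-stage round spermatid-like cells and 0.16 (0.09 to 0.23) in the Fam71b cluster. The summed levels of 22 mid-stage round spermatid markers in the 4 elongating clusters were 1326, 848, 631 and 507 CPM in WT cells. In KO cells they were 1345, 781, 552 and 477. Those of 36 elongating spermatid markers were 282378, 319292, 358667 and 298124 CPM in WT cells. In KO cells they were 267226, 301449, 330730 and 245085. The part of cell position within a cluster in the Mael difference was not tested.

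**Figure D3:**
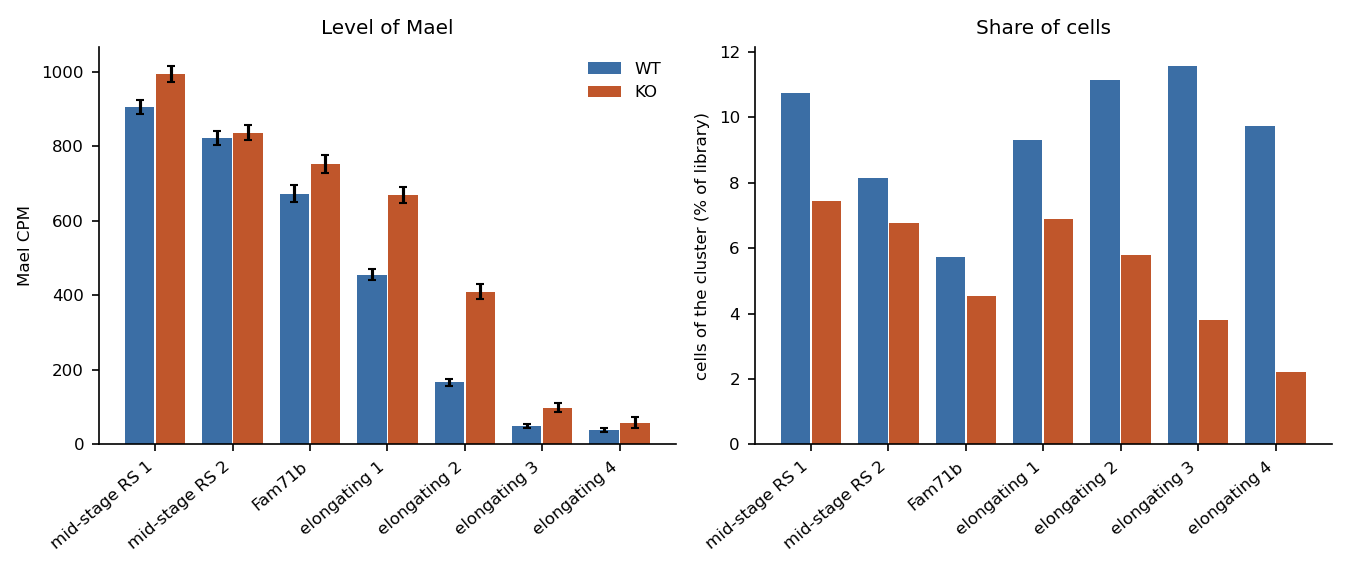
Left, Mael CPM with 95% Poisson bars; right, share of all cells of the library in that cluster (%), for WT and KO in 7 clusters from mid-stage round spermatid-like to elongating cells. Mael is higher in KO in each of the 4 elongating clusters (670 against 456 in the first, 410 against 166 in the second), which hold fewer cells of the KO library.

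Early spermatocyte-like cells were the sparsest class, with 281117 UMIs in WT and 875706 in KO. Mov10l1 had 100 UMIs in 35 WT cells and 224 in 121 KO cells, a log2 ratio of -0.48 (-0.82 to -0.12), and Tdrd9 had 63 and 115 UMIs, a ratio of -0.77 (-1.23 to -0.30). The Mov10l1 call was lost without integration (ratio -0.49) and in thinned cells (-0.34), the Tdrd9 call at resolution 0.8 (-0.52), and neither ratio reached a 2-fold difference. Of all genes assessed in this class, 6.83% were lower and 4.77% higher in KO. With nothing added before the log, Piwil2 and Tdrd1 were also lower and Mael was higher, beside 25.9% of genes lower and 18.2% higher. Piwil1, at 23 and 18 UMIs, had a ratio of -1.99 (-2.97 to -1.04) but a UMI in fewer than 25% of cells of both genotypes, and without integration its ratio was -0.21. Over the 9 members with UMIs in both libraries the median ratio was -0.32, beside -0.03 for all assessed genes. In the same class the 20 late spermatocyte markers summed to 6496 CPM in WT and 4577 in KO, the 22 mid-stage round spermatid markers to 1579 and 339, the 20 Leydig markers to 71.1 and 388 and the 20 Sertoli markers to 395 and 772. The part of these in the members' ratios was not tested.

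In spermatogonia-like cells 6 members were assessed and none passed, where 0.835% of assessed genes were higher and 3.39% lower in KO. Piwil2 and Mael were higher with nothing added before the log, beside 10.2% of genes. The ratios of those 6 lay above 0, at 0.57 (0.27 to 0.88) for Piwil2, 0.37 (0.03 to 0.73) for Tdrd1, 0.32 (0.17 to 0.48) for Ddx4, 0.29 (0.16 to 0.42) for Mael, 0.17 (-0.12 to 0.47) for Tdrd9 and 0.10 (-0.11 to 0.32) for Mov10l1. Of all genes assessed in this class, 59.5% had a ratio above 0. The median was 0.31 over the 6 members and 0.07 over all assessed genes. Below the detection minimum, Piwil4 had a ratio of 1.89 (0.62 to 3.55) from 5 and 91 UMIs, and Tdrd5 one of 1.43 (0.51 to 2.52) from 10 and 132. Tdrd6 was the 1 member with a ratio below 0, -0.95 (-1.45 to -0.42), from 46 and 117 UMIs. Markers of spermatids were also lower in the KO cells of this class, at 2044 CPM in WT and 794 in KO for the 22 mid-stage round spermatid markers, 2193 and 1261 for the 20 early-stage ones and 35772 and 19052 for the 36 elongating ones. The 20 late spermatocyte markers, of the class where WT Tdrd6 was highest, differed less, at 3251 and 2912 CPM. The 19 early spermatocyte markers were higher in KO, at 4185 and 4916. The part of the cells behind these lists in the Tdrd6 ratio was not tested.

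In late spermatocyte-like cells, where 9 members were assessed, none passed and 0.786% of assessed genes were higher in KO and 0.786% lower. Piwil1, Piwil2, Mov10l1 and Tdrd5 were higher with nothing added before the log, beside 9.78% of genes. The ratios were 0.50 (0.40 to 0.60) for Piwil1, 0.48 (0.32 to 0.63) for Tdrd5, 0.48 (0.28 to 0.68) for Mov10l1, 0.40 (0.22 to 0.58) for Piwil2, 0.29 (0.16 to 0.41) for Tdrd1, 0.24 (0.19 to 0.30) for Ddx4 and 0.20 (0.07 to 0.32) for Tdrd9. Mael (0.03) and Tdrd6 (-0.02, -0.09 to 0.05) stood at 0 within counting error. The intervals of 7 of 9 members lay above 0, beside 28.9% of all 5470 assessed genes, and the members' median ratio was 0.29 beside 0.01.

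KO cells of this class lay more often in the first cluster, where Piwil1, Tdrd5 and Tdrd1 were highest (43.9% of KO and 35.6% of WT cells), so the clusters were also taken apart. In the first cluster the intervals of 7 of 9 members lay above 0, beside 24.4% of assessed genes, with ratios of 0.57 (0.30 to 0.84) for Mov10l1, 0.43 (0.34 to 0.51) for Ddx4, 0.43 (0.21 to 0.65) for Piwil2 and 0.31 (0.19 to 0.43) for Piwil1. In the second cluster 2 of 8 did, Piwil1 at 0.28 (0.02 to 0.53) and Ddx4 at 0.15 (0.08 to 0.22), beside 19.5%. The median over members was 0.24 in the first and 0.05 in the second cluster, with all assessed genes at 0.01 in both. In the first cluster 19 early spermatocyte markers summed to 3032 CPM in WT and 4721 in KO cells, and the part of cell position within that cluster in these ratios was not tested.

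In the Ssxb1 clusters 5 members were assessed and none passed, beside 0.958% of genes higher and 0.695% lower. Their ratios lay between 0.09 for Mael and 0.30 (0.06 to 0.54) for Tdrd1. Mov10l1, below the detection minimum there, had 33 WT and 69 KO UMIs, a ratio of 1.24 (0.63 to 1.89), which was 0.45 in thinned cells. In mid-stage round spermatid-like cells none of 4 passed (2.73% of genes higher and 0.879% lower), with ratios from 0.07 for Tdrd6 to 0.13 for Ddx4. In the Fam71b cluster only Mael was assessed, and it did not pass (3.43% higher and 1.66% lower).

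Pooled over all germ cells, 4 members were assessed (Ddx4, Tdrd9, Tdrd6 and Mael) and none passed in either direction, beside 11.4% of genes higher and 5.82% lower in KO. Ddx4 and Tdrd9 were higher with nothing added before the log, beside 31.6% of genes. Among members below the detection minimum, the pooled ratio was 4.18 (3.01 to 5.67) for Piwil4, from 6 and 92 UMIs, 1.49 (1.37 to 1.61) for Mov10l1 and 1.06 (0.94 to 1.19) for Piwil2. For Mov10l1 and Piwil2 these were larger than in any class where the gene was assessed. Spermatogonia-like cells made up 3.40% of WT and 20.2% of KO germ cells, and elongating spermatid-like cells 43.0% and 24.9%. When the 13 clusters were given equal weight the Piwil4 ratio was 1.91, the Mov10l1 ratio -0.15 and the Piwil2 ratio 0.07. Piwil1 went from 0.46 to 0.01, Tdrd1 from 0.57 to 0.16 and Ddx4 from 0.40 to 0.16, and Tdrd6 from 0.09 to 0.08.

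**Figure D4:**
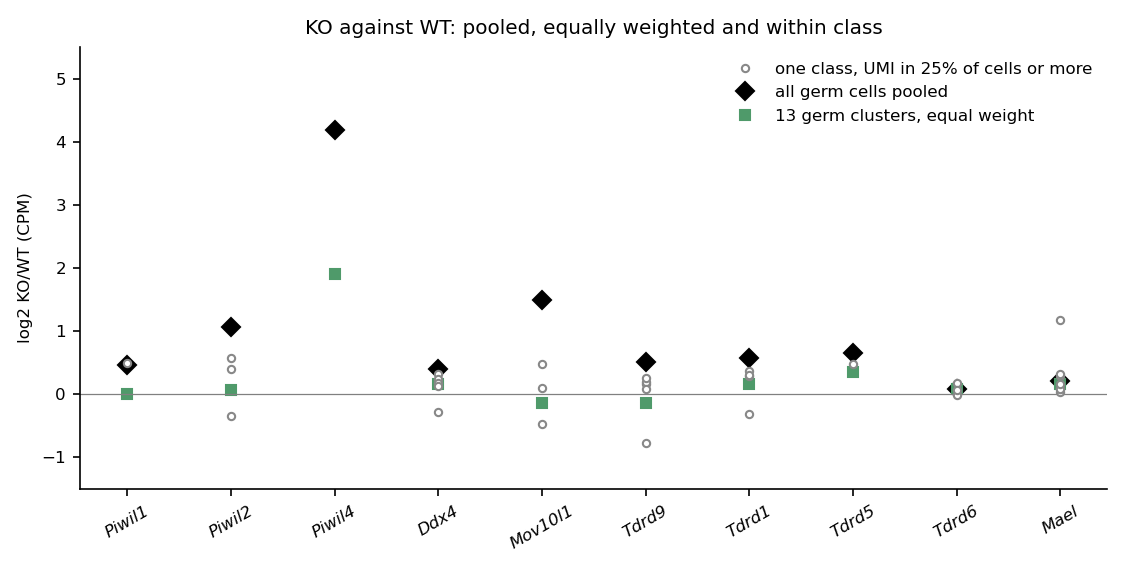
log2 ratio of CPM, KO over WT (y axis), for each gene (x axis) over all germ cells pooled (diamonds), over 13 germ cell clusters at equal weight (squares) and within each class where a UMI was in at least 25% of cells of either genotype (circles). The pooled ratios of Mov10l1 (1.49) and Piwil2 (1.06) stand above their values at equal weight (-0.15 and 0.07).

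Outside the germ line, UMIs of the members were also seen in somatic cells, where free RNA from broken germ cells can be a background. In Leydig-like cells, which should lack Ddx4 and Mael, Ddx4 had 35.7 CPM in WT and 23.3 in KO and Mael 160 and 71.8, with a Mael UMI in 25.5% and 20.1% of cells. Macrophage-like cells held more, 467 (396 to 547) and 506 (458 to 558) CPM of Mael. The median depth was 10004 and 7872 UMIs per Leydig-like cell. Without called doublets Mael was at 153 CPM in WT and 36.0 in KO Leydig-like cells, and the UMIs of Ddx4 went from 37 to 35 in WT and from 239 to 130 in KO.

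Tdrd1 stood apart in Sertoli-like cells, at 28.2 CPM (15.0 to 48.3) in 48 WT cells and 52.0 (45.7 to 59.0) in 468 KO cells, with a UMI in 18.8% and 35.3% of cells, against 3.86 and 3.31 CPM in Leydig-like cells. The median depth was 8326.5 WT and 9147 KO UMIs per Sertoli-like cell. Tdrd1 made up 63.9% (58.8 to 68.7) of the UMIs of Tdrd1 and Ddx4 together in KO Sertoli-like cells, and 12.5% (8.78 to 17.0) in KO Leydig-like, 17.4% in KO spermatogonia-like and 16.4% in KO late spermatocyte-like cells. In WT Sertoli-like cells the share was 43.3% (25.5 to 62.6). Without called doublets the KO share in Sertoli-like cells was 70.6%. The 36 elongating spermatid markers summed to 171032 CPM in WT and 37849 in KO Sertoli-like cells. In elongating spermatid-like cells themselves Tdrd1 made up 16.3% of WT and 13.6% of KO UMIs of the pair. From the list of other pathway genes, Fkbp6 (45.6 and 93.5 CPM, against 1.93 and 12.0) and Mybl1 (8.69 and 32.2, against 0.964 and 3.8) were also higher in Sertoli-like than in Leydig-like cells, both singled out after their values were seen. In macrophage-like cells Fkbp6 was at 9.22 CPM in WT and 58.6 (43.1 to 78.0) in KO.

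Piwil4 likewise had UMIs in Leydig-like cells, 5 in WT (4.82 CPM, 1.56 to 11.2) and 52 in KO (5.06, 3.78 to 6.64). These levels were 165% of its spermatogonia-like level in WT, with overlapping intervals, and 46.6% in KO. A UMI was seen in 5.32% of WT and 3.93% of KO Leydig-like cells, and in 0 of 48 WT Sertoli-like cells, which allows up to 6.52 CPM, and 1 of 468 KO Sertoli-like cells. The Leydig-like level did not differ between genotypes beyond counting error (ratio 0.07, -1.24 to 1.75). Without called doublets 5 and 46 of these UMIs remained. Reads of Piwil4 cannot be told from those of Gm10706, an antisense transcript at the same locus, if counting ignored strand.

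**Figure D5:**
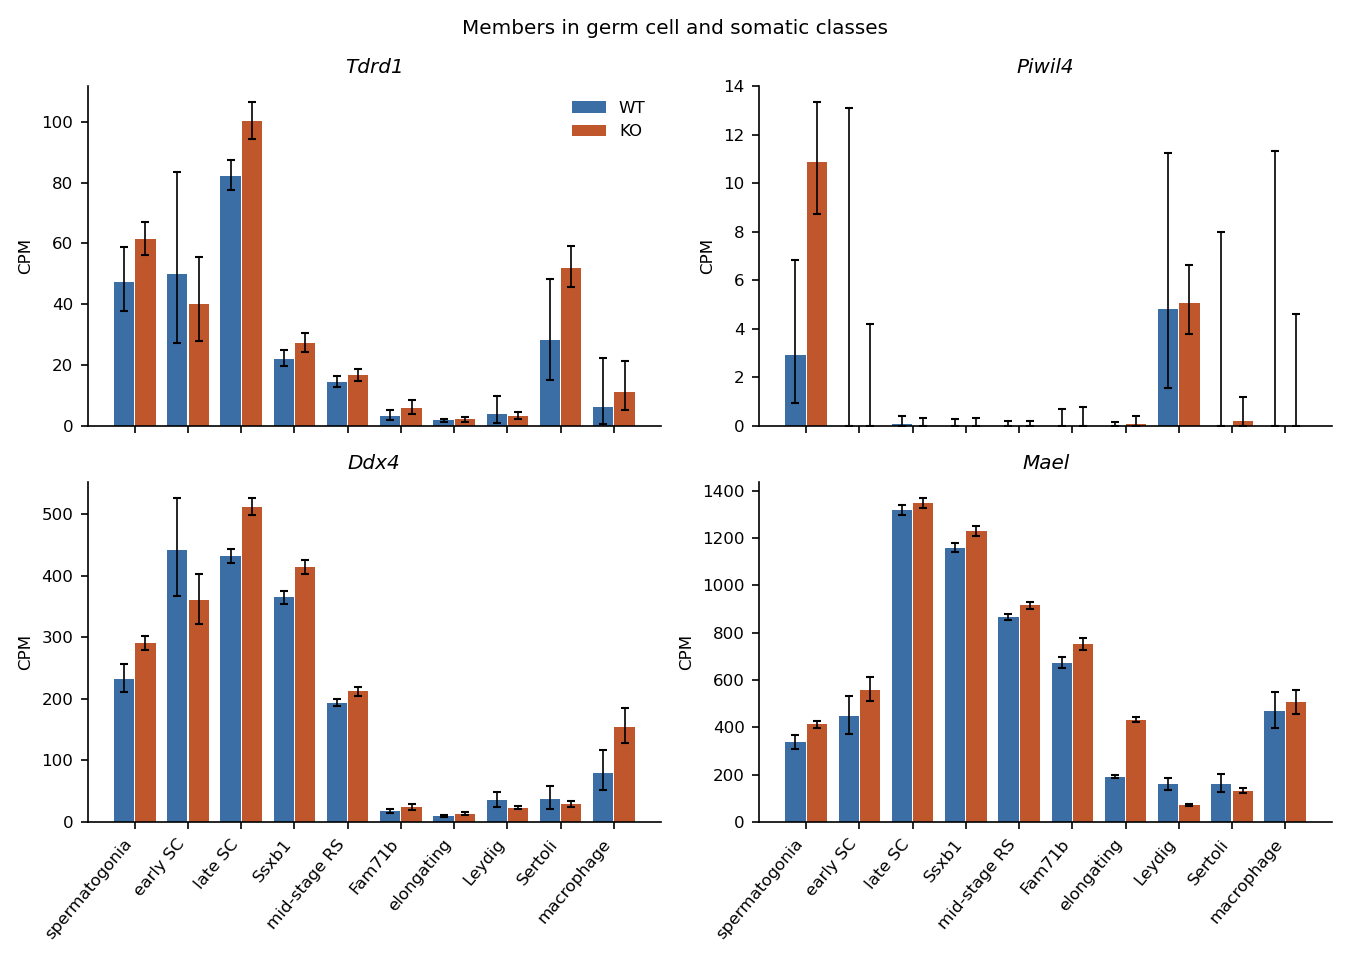
CPM with 95% Poisson bars (y axis, a scale of its own per gene) of Tdrd1, Piwil4, Ddx4 and Mael in 7 germ cell and 3 somatic classes (x axis) of the WT and KO libraries. Tdrd1 reaches 52.0 in KO Sertoli-like cells and Piwil4 5.06 in KO Leydig-like cells. Mael is at 161 in WT and 131 in KO Sertoli-like cells and at 160 and 71.8 in Leydig-like cells. These Mael levels lie below those of every germ cell class of the same library. Ddx4 in Leydig-like cells is at 8.09% of its highest germ cell class level in WT and 4.55% in KO.

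A further 21 genes of the pathway were counted as a list: regulators of transcription, precursor and 3′ end processing factors, other Tudor or chromatoid body genes and nuclear silencing factors. In the WT library 9 of the 21 were highest in early spermatocyte-like, 4 in spermatogonia-like and 4 in late spermatocyte-like cells, and 17 of 21 had the same highest class in KO. By the size criterion 1 was higher and 1 lower among 10 assessed in early spermatocyte-like cells (4.77% and 6.83% of all assessed genes), 1 was higher among 3 in elongating spermatid-like cells (9.47%), and 3 were higher among 9 in pooled germ cells (11.4%), with none in the other 5 classes. Tex15, a nuclear silencing factor, was at 551 CPM (468 to 645) in WT and 748 (692 to 808) in KO early spermatocyte-like cells, a ratio of 0.44 (0.19 to 0.70). Gtsf1, a small zinc finger partner of PIWI proteins, was lower there, at 445 and 283 CPM, a ratio of -0.65 (-0.97 to -0.33). The 3 that passed over pooled cells, Fkbp6 (1.97), Tex15 (1.29) and Asz1 (1.09), had intervals above 0 there, and of them Tex15 alone passed within a germ cell class.

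Gtsf1 was higher in KO in the elongating spermatid-like class, at 263 and 400.2 CPM, a ratio of 0.61 (0.55 to 0.66). Inside the 4 elongating clusters its ratios were 0.27, 0.19, 0.08 and 0.11, none past the criterion, where those of Mael were 0.56 to 1.30. Mybl1, which encodes A-MYB and is named here after its values were seen, was at 78.3 and 129 CPM in early and 63.0 and 76.0 in late spermatocyte-like cells of WT and KO, and passed in no germ cell class. In late spermatocyte-like cells the median ratio over 13 assessed genes of the list was 0.27, beside 0.01 for all assessed genes. Of the 13, 9 had an interval above 0, beside 28.9% of all 5470 assessed genes.

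Markers of other cell types also differed between the libraries, not all in the same direction. The 20 Leydig markers summed to 37.7 CPM in WT and 248.8 in KO pooled germ cells, and all 20 had a UMI in both, while the 20 Sertoli markers summed to 18.4 and 120, with UMIs of 18 and 19 of them. The Leydig and Sertoli lists therefore were higher in KO germ cells. The 20 macrophage markers were lower, at 871 CPM in WT and 779 in KO. The 10 endothelial markers stood at 8.06 and 11.4, and the 14 stromal fibroblast and peritubular markers at 19.0 and 31.6. The part of these lists in the ratios of the members was not tested.

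Genes with the most similar pattern were found by Pearson correlation of log2 levels (CPM, 1 added) over 26 profiles, 13 germ cell clusters in 2 libraries, among 9065 genes, as a description, since the profiles share libraries and depth. For Piwil1 they were BC049730 (0.98), Gm4763 (0.97) and Gm14244 (0.97), and for Tdrd5 Mllt10 (0.98), Zfp389 (0.97) and Sap30 (0.96). For Tdrd1 they were Pop4 (0.98), Apip (0.98) and Atp5j2 (0.98), and for Tdrd6 1700001J11Rik (0.99), Adam30 (0.99) and Ccdc65 (0.99). Mael was most like Calm3 (0.99), Mtch2 (0.98) and Btf3 (0.98), and Ddx4 most like Cetn3, Cct4 and Rnf7 (0.99 each).

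The early peaking genes had other neighbours. Mov10l1 was most like Mbip (0.99), Rab18 (0.98) and Kdm2a (0.98), Tdrd9 most like Ccdc172 (0.99), Rbm6 (0.98) and Rab2a (0.98), and genes most like Piwil2 included Prpf3 and Noc4l (0.98 each). Piwil4, with 98 germ cell UMIs, was most like Dmrt1 (0.89), Gapdh (0.87) and Tyms (0.87).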

How the data were processed

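Testis cells of 1 WT and 1 KO library (GEXSCOPE kit) were analysed from the tables of UMI counts per gene and barcode that the authors deposited. The submitters' processing notes list featureCounts 1.6.2 for counting and STAR 2.5.3a among the tools; the mouse build and strand setting are not given in the sources used here, and the depth was 80283221 (WT) and 82056760 (KO) UMIs. Barcodes with at least 500 genes, which was all of them, were integrated and clustered with Seurat 5.3.0 (2000 variable features, 20 anchor dimensions, 30 principal components, resolution 0.3) after the study's methods. A cluster took the name of the class with the highest mean marker fold, given at least 3 detected markers, and stayed unnamed where that class had under 0.5 times the share of detected markers of another class or another class had more markers among the 10 leading genes. This rule was chosen after seeing the data, because Ssxb genes had been listed as late-stage markers.

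The members and lists were chosen with earlier results of these data known. Counts were summed per library and class, and ratios carry exact conditional intervals; intervals and floors (3 counts for a 0) cover counting error only. Cells are not replicates, so no test was made. The named genes were all 10 members, Alkbh5, list genes past the size criterion in a germ cell class or over pooled germ cells, and the 3 most similar genes of each member with at least 1000 germ cell UMIs, of which 1 is not reported here. Scrublet (scanpy 1.11.5) marked 4.24% of WT and 4.92% of KO barcodes as doublets, which were kept. For shares of cells, 362 WT and 914 KO cells under 5729 UMIs were left out of thinning. Gene positions are from GENCODE (GRCm38). The size criterion set a natural log difference of 0.25 between mean counts scaled to 10000 per cell with 1 added. The criterion and intervals were run on simulated Poisson counts drawn from the WT late spermatocyte-like profile. Such counts hold no spread between libraries, so the run cannot show how either behaves when there is some. Alternatives changed the minimum of genes per cell, resolution, integration, variable features, doublets, scaling, depth, cluster weights, the criterion, the count added before the log and the detection minimum.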

Additional observations from a re-analysis of the deposited data

Results flagged for a closer look

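Gtsf1, of the list of other pathway genes, passed the size criterion in opposite directions in 2 classes, with log2 ratios (KO over WT) of -0.65 in early spermatocyte-like cells and 0.61 in elongating spermatid-like cells. The difference between the classes was not tested.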

How the results depend on the processing

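The count of members highest in WT late spermatocyte-like cells was 5 or 6 under every alternative run, Ddx4 being the sixth. The count of pairs higher in KO was 2 in place of 1 without integration and in thinned cells, where Mael in early spermatocyte-like cells was added, and Mael in elongating spermatid-like cells passed under every alternative run (ratio 0.80 to 1.34). The count of pairs lower in KO went from 2 to 1 at resolution 0.8 (Mov10l1), without integration (Tdrd9) and in thinned cells (Tdrd9). It was 0 with a ratio of at least 2 as the criterion, and 0 without the early spermatocyte-like class, an alternative chosen after seeing the data. With UMIs in at least 10% of cells as the detection minimum it was 3, Piwil1 in early spermatocyte-like cells being added. With nothing added before the log, also chosen after seeing the data, 8 pairs were higher, 4 were lower and 2 members were higher over pooled germ cells. Pooled germ cells gave 1 member higher in KO (Ddx4) when totals left out mitochondrial and ribosomal protein genes, in place of 0. Of 588 ratios of single members under 8 alternatives, 541 stayed inside their main counting interval and 47 moved outside it, 20 of them in thinned cells and 13 at equal weight per cluster. Some of the 588 could not move. A minimum of 1000 genes took germ cells from the elongating spermatid-like class alone, and equal weight leaves a class of 1 cluster unchanged. Sign was compared only for ratios past the size criterion, and none of those changed sign. The causes were not tested. No paired analysis was possible because each genotype had 1 library. With 1 library per genotype, differences between mice, dissociations and libraries cannot be told apart from genotype.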
